A study of Mus musculus with 4 samples.

Results

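The genes described here encode the kinases, phosphatases, cyclases and phosphodiesterases that carry signals inside neurons of hippocampal area CA1, measured in 4 control samples. They were chosen by name: every probe set, a group of probes on the array that reads 1 transcript, with exactly 1 annotated symbol beginning with Prka, Prkc, Prkg, Mapk and a digit, Map2k, Map3k, Ppp and a digit, Dusp, Pde and a digit, or Adcy. Prkcd and Ppp3ca were left out. This gave 135 probe sets of 102 genes, out of 12422 probe sets that are not controls. The name rule also took in a few genes of another kind, such as Adcyap1, a neuropeptide, and Prkcsh, a subunit of an enzyme that trims sugars in the endoplasmic reticulum. The RNA was total RNA from area CA1 of young male C57BL/6J mice, an inbred laboratory strain, and each sample was run on 1 array of 1 colour. All 4 samples were controls, from mice that were handled and got no treatment, and the 1-, 2-, 4- and 6-hour names count the time since the last shock given to the experimental mice. Each time had a single sample, the labels do not say whether it held 1 mouse or a pool, and no shocked sample was analysed here. Times, animals, dissections and arrays therefore cannot be told apart, and p-values measure only the spread between these samples.

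The cyclic AMP pathway runs from adenylyl cyclases, which make cyclic AMP, to protein kinase A, whose regulatory subunits release the catalytic subunits when cyclic AMP binds, and phosphodiesterases end the signal. Protein kinase C answers to lipids and calcium. The MAP kinase cascades pass a signal from a MAP3K through a MAP2K to a MAP kinase, which dual-specificity phosphatases switch off, and protein phosphatases of the PP1, PP2A and calcineurin families reverse phosphorylation at large. In CA1 these enzymes are known for their part in long-term potentiation and depression and in memory. Protein kinase A and MAP kinase signals meet at the factor CREB, which binds the cyclic AMP response element (CRE) of gene promoters.

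The CRE was looked up in the genes' own promoters, because several enzymes of the cascade are themselves encoded by genes with a CRE. The sequences are RefSeq's for the build GRCm38.p6, and the window was the 250 bases before a listed start. Of the 102 genes, 81 had a window under the same symbol. A gene counted if any of its listed windows held the sequence searched for, so a gene with more windows had more chances. The number of windows per gene was not matched between the groups compared. The full CRE, TGACGTCA on either strand, stood in a window of 7 of the 81 genes (8.64%), against 1.77% of all 27025 genes with a window and 2.69% of the 6573 genes named on this array. The core TGACG on either strand, which the full CRE contains, stood in 33 of the 81 (40.7%), against 19.8% of all genes and 28.3% of those on the array. The box GGGCGG, known as a binding site of Sp1, was searched in the same way and was also more frequent, in 59 of the 81 (72.8%), against 35.4% of all genes and 58.9% of those on the array, so a higher share was not particular to the CRE. The letters TATAAA, searched in the same way, were less frequent, in 7 of the 81 (8.64%). Their shares were 14.3% of all genes and 10.9% of those on the array. A match of letters is a description and shows no binding. The matches of the full CRE are shown with their flanks, 5' to 3', the CRE in capitals, to let the sites be compared:
Dusp1, chr17:26508588-26508635, minus strand: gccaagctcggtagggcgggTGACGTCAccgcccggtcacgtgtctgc
Dusp8, chr7:142095364-142095411, minus strand: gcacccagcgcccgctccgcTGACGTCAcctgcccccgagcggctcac
Dusp8, chr7:142095320-142095367, minus strand: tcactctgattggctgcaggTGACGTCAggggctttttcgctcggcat
Mapk10, chr5:103211336-103211383, minus strand: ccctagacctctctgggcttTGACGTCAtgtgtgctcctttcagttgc
Ppp1r12c, chr7:4501722-4501769, minus strand: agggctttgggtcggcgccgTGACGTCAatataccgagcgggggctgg
Ppp1r15a, chr7:45526269-45526300, minus strand: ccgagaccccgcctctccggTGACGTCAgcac
Ppp2ca, chr11:52098778-52098823, plus strand: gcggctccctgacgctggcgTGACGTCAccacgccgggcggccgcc
Prkar1a, chr11:109650880-109650927, plus strand: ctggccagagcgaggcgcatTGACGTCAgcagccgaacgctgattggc

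The 7 genes encode a MAP kinase (Mapk10), a regulatory subunit of protein kinase A (Prkar1a), MAP kinase phosphatases (Dusp1 and, with 2 sites, Dusp8), a catalytic subunit of PP2A (Ppp2ca) and targeting subunits of PP1 (Ppp1r12c and Ppp1r15a). Mapk10 holds the CRE in 1 of its 2 listed windows, and Prkar1a also has listed windows without it. The Dusp1 window is given whole, because it holds a further core site outside the CRE. The Prkar1b window is given for comparison, because both Prkar1b probe sets were called in the fit of the 1-hour sample described further on. It is the 1 of the 5 listed Prkar1b windows with a core site, and none of the 5 holds the full CRE. Core sites are in capitals:
Dusp1, chr17:26508473-26508722, minus strand: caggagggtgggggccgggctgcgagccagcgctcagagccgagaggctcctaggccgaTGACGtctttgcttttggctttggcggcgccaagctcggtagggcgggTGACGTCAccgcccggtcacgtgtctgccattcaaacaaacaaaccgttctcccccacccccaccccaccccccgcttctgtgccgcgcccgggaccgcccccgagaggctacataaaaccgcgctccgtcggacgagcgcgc
Prkar1b, chr5:139150002-139150251, minus strand: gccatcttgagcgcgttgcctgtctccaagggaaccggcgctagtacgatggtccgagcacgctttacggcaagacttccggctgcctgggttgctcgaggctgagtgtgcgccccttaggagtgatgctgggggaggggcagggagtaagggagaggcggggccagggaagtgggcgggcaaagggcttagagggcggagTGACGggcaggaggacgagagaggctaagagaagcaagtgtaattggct

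Levels are quoted as deposited, as a linear signal, in the order 1, 2, 4 and 6 hours unless stated otherwise, and log2 differences come from quantile normalized values. Tests were limited to probe sets whose mean log2 level reached the 40th percentile (6.71, a signal of 105). Of the 135 probe sets, 96 passed, of 81 genes, and 39 did not. Among the 39, 11 lay at or below the floor of 35.1, the 20th percentile, in all 4 samples. The nearest outside the limit were Adcy4 with 171, 151, 41.3 and 108 and Prkci with 94.5, 128, 85.1 and 101, and the nearest inside were the 2 probe sets of Map2k6, with 141, 135, 76.3 and 101 on one and 158, 117, 116 and 91.3 on the other. Signals of different probe sets depend on their probes and were not compared with each other.

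The tissue and the arrays were checked with marker genes and control probe sets. Wfs1, a defining gene of CA1 pyramidal neurons, had signals of 1964 to 2797, while both Camk2a probe sets stayed at or below 94.9. Of 5 CA1 genes found, 4 were tested, and the sum over the 5 was 5855 to 6508. Genes of other fields were read as well: the sum over 3 CA3 and CA2 genes was 5797 to 6642, mostly from Rgs14 with 5017 to 5790. How pure the CA1 dissection was cannot be read from these sums. The 1-hour sample stood apart. Its 3' over 5' signal ratio for Gapdh, a measure of RNA and labelling quality, was 4.52, against 1.18 to 1.37 at the later times. The same ratio for actin was 2.34, against 1.76 to 2.00. The sum of 4 choroid plexus genes, of which 3 were tested, was 4519 there, against 1852, 2332 and 1638, and Ttr made up 2246 of it. Over the 4 samples the log2 range of such a sum was 1.46 for choroid plexus, 0.80 for endothelium and 0.63 for thalamus. It was 0.08 to 0.38 for the other marker lists. In such bulk tissue fewer cells of a type and less RNA per cell cannot be told apart. The part of these measures in the results below was not tested. The main counts are given with and without that sample.

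Most of the signalling genes varied by less than 2-fold over the 4 samples. The median range, the highest minus the lowest log2 value, was 0.46 over the 96 tested probe sets and 0.56 over all 7453 tested probe sets, and the median SD was 0.21 and 0.25. A range of 1 log2 unit or more, a 2-fold spread, was found in 15 of the 96 (15.6%), against 17.9% of all tested probe sets. Without the 1-hour sample it was found in 9 (9.38%), against 9.06%. Both shares lie near those of all probe sets. The lowest of the samples was that of 1, 2, 4 and 6 hours in 5, 0, 8 and 2 of the 15, shares of 5.21%, 0%, 8.33% and 2.08%, against 7.11%, 3.64%, 3.8% and 3.31% of all tested probe sets. The highest was that of 1, 2, 4 and 6 hours in 3, 3, 2 and 7, shares of 3.12%, 3.12%, 2.08% and 7.29%, against 5.41%, 3.57%, 4.19% and 4.7%. By class, 6 of the 15 were regulatory subunits of phosphatases, of 20 tested, and 2 were MAP kinases, of 7 tested. Without the 1-hour sample these counts were 5 and 0. The 6 probe sets that no longer reached the range were those of Mapk9, Mapk10, Map2k5, Map3k3, Ppp2r5d and Prkar1b. None of the 6 tested adenylyl cyclase probe sets and none of the 10 tested phosphatase catalytic probe sets reached such a range.

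**Figure D1:**
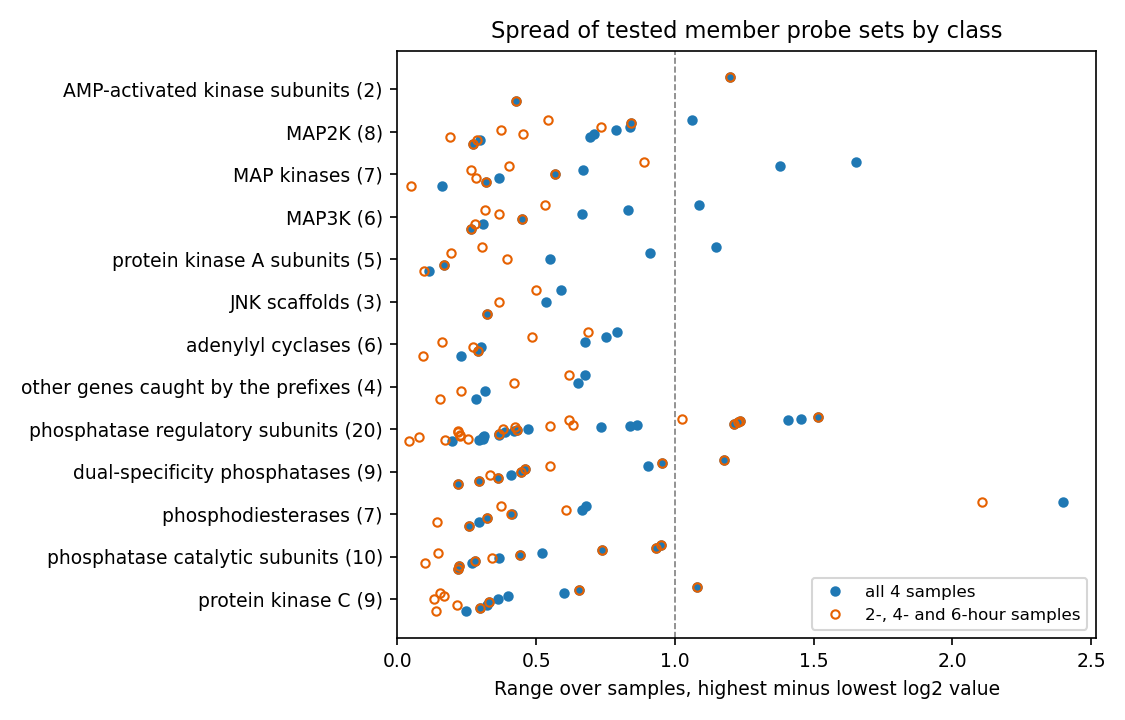
Range over samples (highest minus lowest log2 value) of each of the 96 tested probe sets, by class, with the number tested in brackets. Filled points use all 4 samples, open points the 2-, 4- and 6-hour samples, and the dashed line marks 1 log2 unit. 15 filled and 9 open points reach the line, and Pde4b lies furthest out with 2.40 and 2.11.

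None of the enzymes that make cyclic AMP reached a 2-fold range on a tested probe set. Adcy2, a cyclase of the brain stimulated by G protein beta-gamma subunits, had 2790.4, 2453, 2603 and 2389 (range 0.23 on the log2 scale, as for each range here). Adcy3, known from olfactory signalling and neuronal cilia, had 654, 661, 641 and 790.4 (0.29), highest at 6 hours. The calcium-inhibited Adcy6 had 301, 530.4, 368 and 484 (0.75). Its 2 high samples were those of 2 and 6 hours. Adcy8, which calmodulin activates and which links calcium entry to cyclic AMP in CA1, had 295, 179, 280.0 and 251 (0.79), with the 2-hour sample lowest. The 2 probe sets of Adcy9 went apart: one had 2248, 1574, 1561 and 1421, highest at 1 hour, the other 1957, 2140.2, 2460.3 and 1998, lowest at 1 hour. Adcy7 did not pass the limit, with 126, 31.6, 32.4 and 35.8. Adcyap1, the peptide PACAP that stimulates cyclases through its receptor, had 126, 136, 198 and 155, and the receptor Adcyap1r1 had 223, 174, 141 and 197. On these probe sets the peptide was highest and its receptor lowest in the same 4-hour sample. The other probe set of the receptor, below the limit for tests, had 112.5, 14.2, 41.3 and 38.9, lowest at 2 hours.

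Among the 7 tested phosphodiesterase probe sets 1 varied by 2-fold or more. Pde4b, which breaks down cyclic AMP and is known as a target of rolipram, had 232, 175, 44.4 and 195. The 4-hour sample differed by -2.14 in log2 from the mean of the others (their SD was 0.24), which stayed between 175 and 232. Its range of 2.40 was the largest of the 96 tested probe sets. The calmodulin-stimulated Pde1b had 792, 996, 886 and 938 (0.29). The related Pde1a was read by 2 probe sets that disagreed: 655, 974, 824 and 1082 in one, lowest at 1 hour, and 236, 157, 229.6 and 212 in the other, lowest at 2 hours. Pde8a, specific for cyclic AMP, had 171, 184, 153 and 188 (0.26), and Pde9a, specific for cyclic GMP, 156, 167, 179.7 and 145 (0.32). Both were steady. The retinal genes Pde6a, Pde6b and Pde6g did not pass the limit, and Pde1c stayed below 10 in all samples. Pde6d, which carries prenylated proteins, was the 1 tested Pde6 gene, with 877, 673, 875 and 894. Pde4dip, which anchors phosphodiesterases at centrosome and Golgi, had 1072, 1329, 1198 and 1269.5.

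The subunits of protein kinase A split into steady and varying ones. Prkar1a, a regulatory subunit found in most tissues, had 12468, 11085, 11896 and 12058, the smallest range of all 96 (0.11). Prkacb, a catalytic subunit abundant in brain, had 4284, 3790.4, 4323 and 3986 (0.17). Both lay far inside the limit of 1 log2 unit. Prkar1b, the regulatory subunit enriched in neurons, had 4529, 6934, 8301 and 7968 on one probe set and 958, 1726, 2111 and 2167 on the other. On both, the 1-hour sample lay below the other 3, which stayed within 0.19 and 0.30 of each other on the log2 scale. The catalytic subunit Prkaca had 1345, 1502, 1836 and 1982, each sample above the one before. Prkar2a, a regulatory subunit that anchoring proteins hold in place, had 37.2, 115, 30.9 and 159.6, below the limit for tests, and at the floor in the 4-hour sample.

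**Figure D2:**
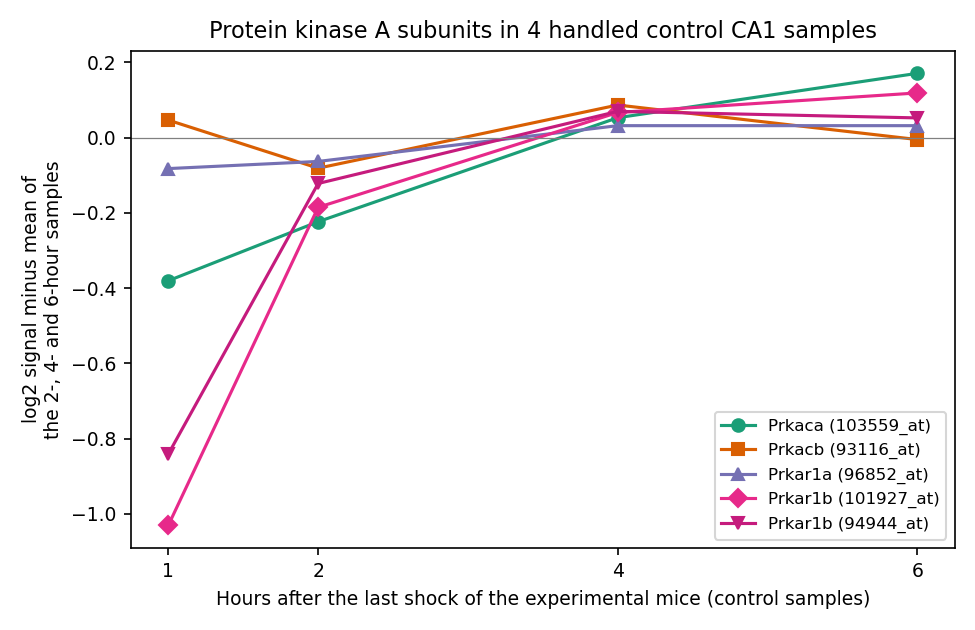
Log2 signal of the 5 tested protein kinase A probe sets in each sample minus the mean of the 2-, 4- and 6-hour samples, plotted against hours. Both Prkar1b probe sets lie at -0.84 and -1.03 in the 1-hour sample and at most 0.19 from 0 later, while Prkar1a and Prkacb stay near 0.

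AMP-activated kinase, the energy sensor, was caught by the same prefix. Its gamma subunit Prkag1, which binds AMP, had 228, 265, 209 and 487. The 6-hour sample was the high one, a log2 difference of 1.05 from the mean of the others (their SD was 0.15). The beta subunit Prkab1 had 325, 266, 343 and 273 (0.43). Prkg2, the 1 cyclic GMP-dependent kinase among the genes, lay below the floor in all 4 samples, with 21.6, 9.90, 9.90 and 9.40.

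Protein kinase C genes had a median range of 0.36 over 9 tested probe sets. The calcium-dependent Prkca had 359, 403, 459 and 411. The calcium-dependent Prkcb had 17939.9, 14216, 13003 and 14509.9 on one probe set and 2983, 2490.1, 2278 and 2464 on the other. On both Prkcb probe sets the 1-hour sample was highest and the 4-hour sample lowest. The calcium-independent Prkce had 2446, 2694, 2246 and 2351 on one probe set and 817, 862, 899 and 732 on the other, with ranges of 0.30 and 0.33. Prkcq, a further calcium-independent form best known from T cells, had 196, 219.7, 182 and 290.2. Its 6-hour sample was the highest. Prkcz, the atypical form whose catalytic part is known in hippocampus as PKM-zeta, was read by 3 probe sets. The first had 1352, 1818, 2084 and 2062, the second 413, 609, 284 and 459, and the remaining one 128, 156, 134 and 135. They share no order of samples: the 4-hour sample was the highest on the first and the lowest on the second, whose identifier marks it as made under relaxed rules of probe choice. Prkch stayed below 30 throughout. Prkcsh, which is no kinase, had 1575, 1883, 1987 and 1679.

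Among the MAP kinases the 3 genes of the JNK group, stress-activated kinases, differed in their spread. Mapk8 (JNK1) had 1086, 1164, 917 and 1049.5 on its tested probe set (0.32). Mapk9 (JNK2) had 129, 398, 217 and 409. It was high in the 2- and 6-hour samples, lower at 4 hours and lowest at 1 hour, a range of 1.65, or 0.89 without the 1-hour sample. Mapk10 (JNK3), the form of the nervous system, had 5469, 4868, 4301 and 4003 on one probe set. The other, whose identifier marks it for probes shared with other sequences, had 2074, 1059, 921 and 798. On both the order was the same, highest at 1 hour and lowest at 6 hours, but the range was 0.37 on the first and 1.38 on the second, or 0.28 and 0.40 without the 1-hour sample. Mapk14 (p38 alpha) had 991, 1097, 1101 and 1135, the second smallest range of the 96 (0.16). Mapk12 (p38 gamma) had 186, 259, 262 and 177 and Mapk6 (ERK3) 923, 597, 686 and 722. Mapk7 (ERK5) stayed below the limit, with 62.8, 81, 106 and 57.1. The JNK scaffold Mapk8ip1 had 1766, 2295, 2606 and 1978 on one probe set and 273, 305, 322 and 427 on the other, whose highest samples were those of 4 and 6 hours. The scaffold Mapk8ip3 had 3078, 2569, 3266 and 3049.6.

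Upstream of them, the MAP2K genes included Map2k1, with 2184, 2118, 2529.8 and 2049.7 (0.27), and Map2k2, with 538, 397, 337 and 371 (0.69). The 1-hour sample was the highest for Map2k2 and the 4-hour sample for Map2k1. Map2k4, which activates JNK, had 773, 1118, 617 and 1034. The samples of 2 and 6 hours were the high ones, as for Mapk9 but not for Mapk8 or Mapk10. How many members share this order was not counted. Map2k5, the activator of ERK5, had 445, 668, 959.8 and 801, lowest at 1 hour and highest at 4 hours, a range of 1.06, or 0.54 without the 1-hour sample. The p38 activator Map2k3 had 468, 801, 763 and 588 on one tested probe set and 254, 268, 300.2 and 322 on the other. On a probe set that did not pass it had 12.5, 51.6, 42.7 and 5.70. The other p38 activator, Map2k6, was given above. All 4 tested probe sets of these genes stayed within a 2-fold range.

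At the top of the cascades, 11 of 17 MAP3K probe sets did not pass the limit. Map3k1, a kinase upstream of JNK, failed on all 3 probe sets, with 243, 91.8, 26.2 and 86.9 on the brightest. Map3k5 (ASK1), activated by oxidative stress, had 154, 162, 179 and 150.3 (0.26). Map3k7 (TAK1), which acts in cytokine signalling, had 168, 190.1, 216 and 159. Both were steady. Map3k4 had 379, 233, 270.0 and 220.0, highest at 1 hour. Map3k3 was read by 3 tested probe sets with opposite orders. One had 405, 342, 305 and 263, lower in each later sample. Another had 135, 202, 209 and 286, higher in each later sample, and the remaining one 178, 183, 142 and 156, in no such order. Of the 13 genes with 2 or more tested probe sets, the probe sets lay on the same side of the other samples at 1 hour in 8 and on opposite sides in 5, Map3k3 among them.

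The Dusp genes had a median range of 0.44 over 9 tested probe sets. They include MAP kinase phosphatases, several of which are switched on by activity. Dusp1, the nuclear phosphatase whose promoter with its CRE is shown above, had 789, 702, 854 and 711 (0.30). Dusp6, a cytoplasmic MAP kinase phosphatase, had 1072, 1205, 872 and 1015 (0.46). Dusp8, with 2 CREs, had 1317, 1313, 1449 and 1252 on one probe set (0.22) and 761, 735, 676 and 591 on the other (0.41). Dusp2, a nuclear MAP kinase phosphatase, varied more, with 346, 611, 429 and 315, highest at 2 hours (log2 difference from the others 0.74, their SD 0.23). Dusp11, which acts on RNA, had 94.9, 135, 84 and 198, highest at 6 hours. Dusp12 had 441, 249, 351 and 284 and Dusp19 309, 403, 293 and 407. Of the genes with a full CRE, the tested probe sets had ranges of 0.11 for Prkar1a to 0.74 for Ppp2ca, except for the Mapk10 probe set marked for shared probes, and Ppp1r12c stayed below the floor.

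The catalytic subunits of the phosphatases had a median range of 0.40. For PP1, Ppp1cb had 1561, 1531, 1215 and 1489 and Ppp1cc 1703, 1472, 1403 and 1511. For PP2A, Ppp2ca had 455, 511, 298 and 384 and Ppp2cb 2947, 2595, 2982 and 2499. Ppp2ca was lowest at 4 hours and Ppp2cb differed by less than 1.5-fold throughout (0.22). Calcineurin, the calcium-activated phosphatase needed for long-term depression, was represented by Ppp3cb, with 719, 1109, 563 and 1052, Ppp3cc, with 202, 189.9, 215 and 205, and the calcium-binding subunit Ppp3r1, with 9229.8, 13667, 10499 and 13429.6. Ppp3cb and Ppp3r1 were both higher in the 2- and 6-hour samples than in the 1- and 4-hour samples, and Ppp3cc was steady (0.22). Ppp4c had 681, 808, 676 and 664 and Ppp5c 305, 411, 448 and 416. Ppp6c had 628, 618, 516 and 719 on one probe set (0.44) and 135, 159, 91.8 and 180.5 on the other (0.93). Both Ppp6c probe sets were lowest at 4 hours and highest at 6 hours. Ppp4c, Ppp5c and Ppp6c are catalytic subunits of smaller families.

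Regulatory subunits held 6 of the 15 probe sets with a range of 1 or more. The PP2A scaffold Ppp2r1a had 10913, 8147, 8278 and 8877 (0.29), while its sister Ppp2r1b had 182, 195, 64.4 and 111 (1.52). Of the subunits that give PP2A its targets, Ppp2r2b had 2892, 3319, 2591 and 3408, Ppp2r2a 163, 169.6, 69.1 and 154 and Ppp2r5c 4226, 3031, 3598 and 3536. Ppp2r2a was low in the 4-hour sample alone. Ppp2r5d had 246, 571, 436 and 681, with the 1-hour sample below the other 3, and its range was 1.41, or 0.62 without that sample. For PP1, Ppp1r1a, the inhibitor that protein kinase A switches on, had 278, 369, 568 and 246, highest at 4 hours (log2 difference from the others 0.97, their SD 0.28). The inhibitor Ppp1r2 had 318, 183, 219.9 and 276 on its tested probe set. Ppp1r17, a substrate of cyclic GMP-dependent kinase, had 192, 142, 69.5 and 146 on its tested probe set. Ppp1r15a, induced by stress, and Ppp1r15b both direct PP1 to a translation factor. Ppp1r15a had 344, 319.5, 269 and 270.2, and Ppp1r15b had 710.1, 571, 654 and 647. Both were steady, as was Ppp6r3 with 1396, 1565, 1562 and 1626 (0.20). Ppp4r2 had 353, 303, 214 and 204, lower in each later sample. The other tested regulatory subunits, Ppp1r7, Ppp1r14b, Ppp1r18, Ppp1r21 and Ppp2r5a, had ranges of 0.31 to 0.47.

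For 21 genes no probe set was tested, and these 21 account for 27 of the 39 untested probe sets. They are Adcy4, Adcy7, Prkar2a, Prkch, Prkci, Prkg2, Pde1c, Pde6a, Pde6b, Pde6g, Pde7a, Dusp16, Mapk7, Mapk13, Map3k1, Map3k2, Map3k6, Map3k8, Map3k11, Map3k12 and Ppp1r12c. Among them, Pde7a, a phosphodiesterase of cyclic AMP, had 95, 13.2, 135 and 103 and was low at 2 hours alone. Dusp16, a phosphatase of JNK, had 109, 28, 22.1 and 79.6 on its brighter probe set, at the floor at 2 and 4 hours. Map3k8, known as Tpl2, had 139, 74.5, 87.8 and 65.8 on its brighter probe set, highest at 1 hour. These levels lie near the floor and were not tested.

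The first test asked for a linear change over the 4 times. None of the 96 probe sets passed at an adjusted p under 0.05 in limma, and the share over all 7453 was 0%. At an unadjusted p under 0.05 there were 5 (5.21%), against 6.24% of all tested probe sets. Of the 5, 3 had a positive slope (3.12%, against 3.57%) and 2 a negative one (2.08%, against 2.67%). The smallest p values belonged to genes already described. For a positive slope they were the 2 Prkar1b probe sets, with fitted log2 changes from 1 to 6 hours of 0.99 (SE 0.33, limma p 0.0185, adjusted p 0.74) and 0.76 (SE 0.28, limma p 0.03, adjusted p 0.74), and Prkaca with 0.56 (SE 0.21, limma p 0.033, adjusted p 0.74). For a negative slope they were Mapk10 on its shared probe set, with -1.17 (SE 0.35, limma p 0.0121, adjusted p 0.74), Ppp4r2 with -0.85 (SE 0.35, limma p 0.0444, adjusted p 0.74), and Adcy9 with -0.55 (SE 0.25, limma p 0.0665, adjusted p 0.74). Without the 1-hour sample the 6 slopes kept their signs. They were 0.39 and 0.20 for the Prkar1b probe sets in the same order, 0.49 for Prkaca, -0.50 for Mapk10, -0.69 for Ppp4r2 and -0.19 for Adcy9.

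The second fit set the 1-hour sample, the one with the Gapdh ratio of 4.52, against the other 3. That sample was chosen because earlier results of these data had shown it to stand apart, so its p-values depend on this choice. The fit takes the spread from the other 3 and draws it toward that of all tested probe sets of similar level. It assumes that the single sample varies as the others do, so it describes an array and tests no time. In limma 3 of the 96 probe sets (3.12%) had an adjusted p under 0.05, against 2.35% of all tested probe sets. Those lower in the 1-hour sample were both probe sets of Prkar1b (a log2 difference of -0.84 with an SE of 0.12 and a limma adjusted p of 0.0182, and a log2 difference of -1.03 with an SE of 0.18 and a limma adjusted p of 0.0307), 2.08% against a background of 2.11%. The 1 higher was the shared Mapk10 probe set (a log2 difference of 1.17 with an SE of 0.21 and a limma adjusted p of 0.031), 1.04% against 0.242%. The brighter Mapk10 probe set had a log2 difference of 0.25 with an SE of 0.15 and a limma adjusted p of 0.451. At an unadjusted p under 0.05 there were 14 (14.6%), against 15.8% of all. The same fit of the 2-, 4- and 6-hour samples, added after the data had been seen, called 0 members, against 0% of all. The members below 0.05 before adjustment numbered 1, 6 and 1 in these fits, or 1.04%, 6.25% and 1.04%, against 2.64%, 2.76% and 2.27% of all.

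The 5 members next in order of p missed the threshold in this fit. Ppp2r5d had a log2 difference of -1.12 with an SE of 0.28 and a limma adjusted p of 0.103, and Mapk9 had a log2 difference of -1.34 with an SE of 0.41 and a limma adjusted p of 0.159. Ppp3r1 had a log2 difference of -0.57 with an SE of 0.16 and a limma adjusted p of 0.139, and the brightest Prkcz probe set a log2 difference of -0.55 with an SE of 0.16 and a limma adjusted p of 0.137. These 4 lay lowest in the 1-hour sample. Adcy9, highest there on one probe set, had a log2 difference of 0.57 with an SE of 0.16 and a limma adjusted p of 0.131. Without the 4-hour sample, the log2 differences of Mapk9, Ppp2r5d and Ppp3r1 were -1.62, -1.28 and -0.73, and more members passed. The share over all tested probe sets was not counted for that setting. Without the 6-hour sample the shared Mapk10 probe set and the dimmer Prkar1b one no longer passed (adjusted p 0.0574 and 0.0722), and 1 lower was left. None of the 3 passed with the higher floor of the 40th percentile, with a variance prior without an intensity trend, or with no filter, at the same log2 differences.

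**Figure D3:**
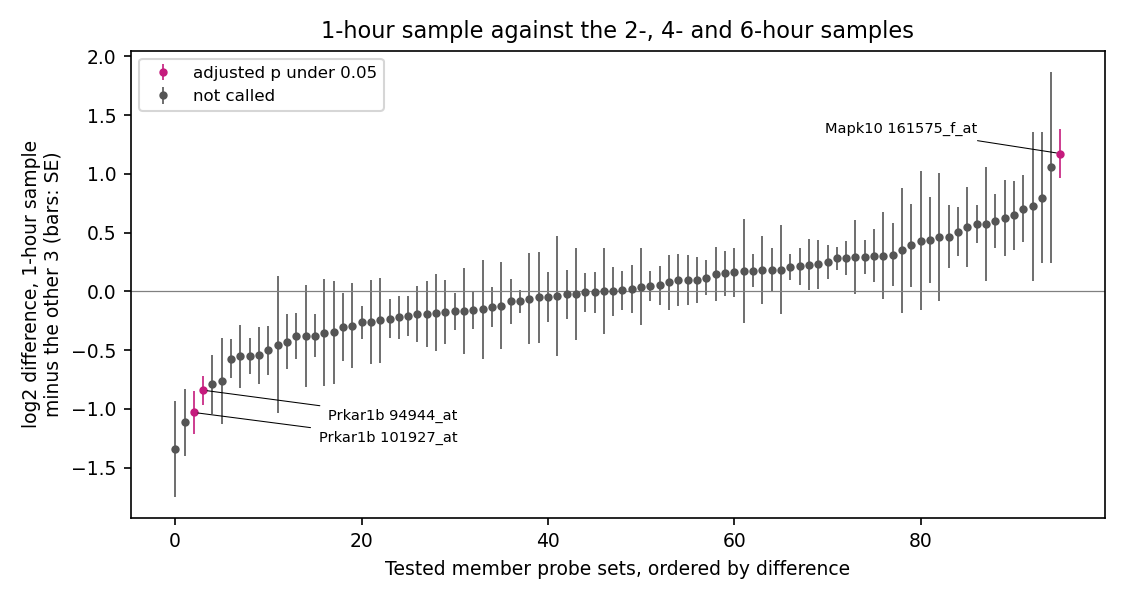
Log2 difference of the 1-hour sample minus the other 3 for the 96 tested probe sets, in order of size, with the limma SE as bars. The 2 Prkar1b probe sets and the shared Mapk10 probe set, in colour, have an adjusted p under 0.05, and 50 of the 96 points (52.1%) lie above 0, against 54.7% of all tested probe sets.

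Each sample was then set against the mean of the other 3 without a test, in 4 comparisons that share their samples. In the 1-hour sample 2 members lay 2-fold or more above (2.08%, against 1.78% of all tested probe sets) and 3 below (3.12%, against 4.56%). The 2 above were the shared Mapk10 probe set and Pde4b, and the 3 below were Mapk9, Ppp2r5d and the dimmer Prkar1b probe set. In the 2-hour sample there were 0 either way, against 1.27% above and 1.72% below. In the 6-hour sample 1 lay above, Prkag1 (1.04%, against 1.49%), and 0 below (against 1.61%). In the 4-hour sample 0 lay above (against 1.07%) and 5 below (5.21%, against 1.93%).

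The 5 that were low at 4 hours were Pde4b, Ppp2r1b, Ppp2r2a, Ppp1r17 and Ppp1r3c, a subunit that brings PP1 to glycogen, with 200.1, 199.6, 92 and 225. Their differences were -2.14, -1.26, -1.18, -1.14 and -1.13 on the log2 scale, and the SD of the others were 0.24, 0.43, 0.05, 0.27 and 0.10. In all 5 the 4-hour sample was the lowest, and the other 3 were 111 or higher. All 5 are dim, and the highest value among them was 232. The other probe set of Ppp1r17, below the limit for tests, had 63.6, 39.3, 61.1 and 66.9. It was lowest at 2 hours and not low at 4 hours. After the floor was raised to the 40th percentile 0 members reached 2-fold, and without the 1-hour sample 4 members did. The Gapdh ratio of the 4-hour sample was 1.37.

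**Figure D4:**
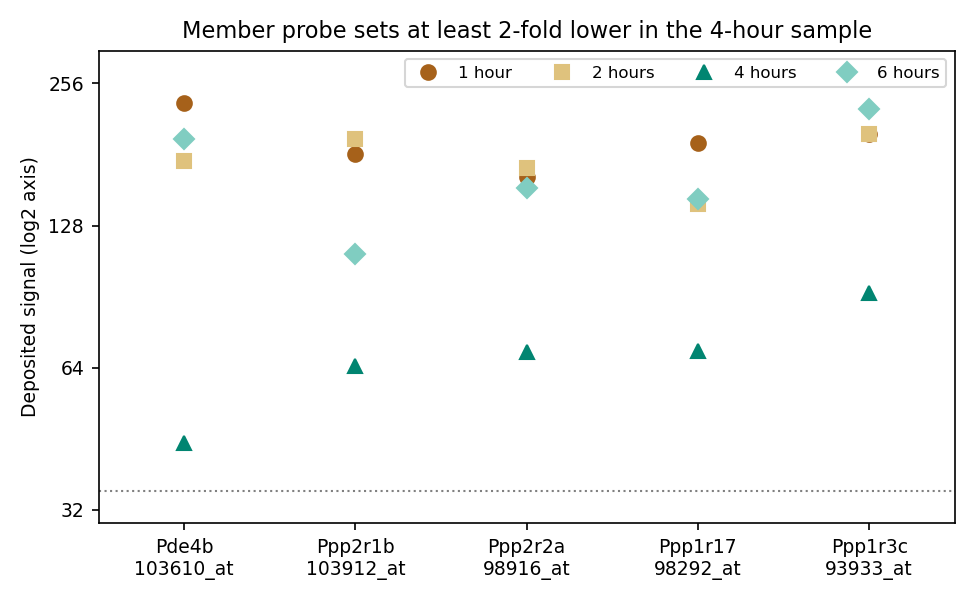
Deposited signal (log2 axis) of the 5 probe sets that lay at least 2-fold below the mean of the other samples at 4 hours, with 1 point per sample. The 4-hour points lie between 44.4 and 92.0, the others between 111 and 232, and the dotted line marks the floor of 35.1.

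Between pairs of samples, the numbers of members 2-fold or more apart were 2 for 1 and 2 hours, 9 for 1 and 4 hours and 7 for 1 and 6 hours. The shares were 2.08%, 9.38% and 7.29%, against 8.1%, 8.21% and 8.75% of all tested probe sets. They were 5 for 2 and 4 hours (5.21%, against 4.92%), 0 for 2 and 6 hours (0%, against 4.01%) and 7 for 4 and 6 hours (7.29%, against 4.76%). By this count the samples of 2 and 6 hours were the closest pair for these genes, and also over all tested probe sets. These are counts over 1 array on each side, with no test.

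**Figure D5:**
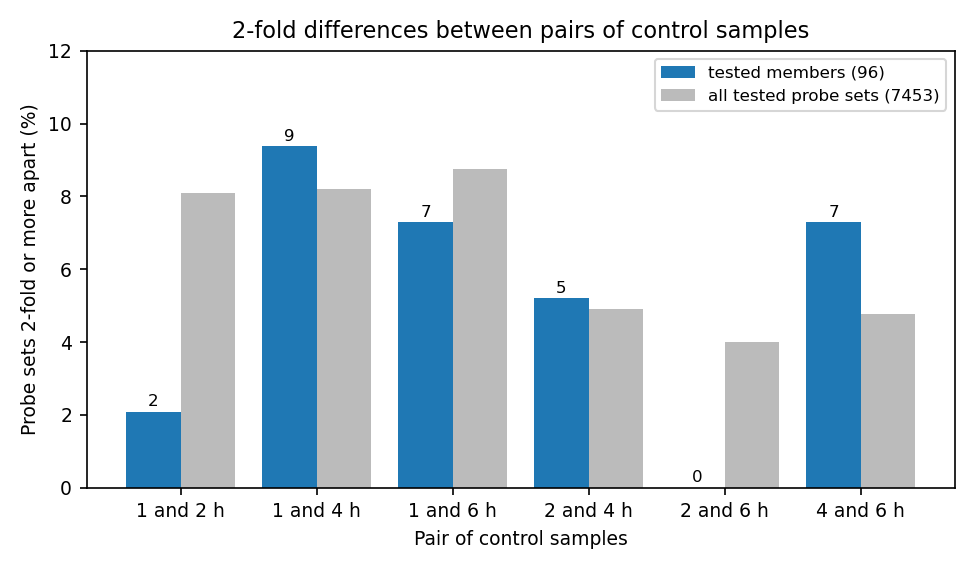
Share of probe sets 2-fold or more apart (%) for each pair of control samples, for the 96 tested members (left bars, with the number on top) and all 7453 tested probe sets (right bars). Members range from 0 probe sets for 2 and 6 hours to 9 for 1 and 4 hours.

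Partners of these enzymes that do not carry the prefixes were read from the same fits. A list of 67 symbols gave 61 probe sets of 40 genes, 41 of them tested. None passed the trend in limma, where the background was 0%, and before adjustment 2 of the 41 lay under 0.05, against 6.24% of all tested probe sets. At 1 hour 0 were called higher, against 0.242% of all, and 1 lower, against 2.11%. It was Pick1, the scaffold that binds protein kinase C alpha, with 66.8, 368, 290.0 and 283 (a log2 difference of -2.22 with an SE of 0.33 and a limma adjusted p of 0.019). Its other probe set had 295, 236, 298 and 199.7 and was not lowest at 1 hour. The protein kinase A inhibitor Pkia had 116, 255, 234 and 203 on one probe set and 1106, 1825, 1229 and 1712 on the other, both lowest at 1 hour (a log2 difference of -0.97 with an SE of 0.34 and a limma adjusted p of 0.227, and a log2 difference of -0.47 with an SE of 0.24 and a limma adjusted p of 0.393). Rasgrp1, which activates Ras on calcium and lipid signals, had 275, 639.7, 539.8 and 601 (a log2 difference of -1.07 with an SE of 0.22 and a limma adjusted p of 0.055). The median of the 1-hour difference over the 41 was -0.12, against 0.05 over all tested probe sets and 0.01 over the 96 members. Creb1 did not pass the limit on any of its 3 probe sets, the highest value being 151, and Crem, which is related to it, had 207, 286, 126 and 121 on the tested probe set.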

How the data were processed

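Total RNA of 4 handled control samples was measured on 1-colour arrays. The deposited values are an intensity per probe set on a linear scale, 12488 rows with 66 controls. The columns share a mean of 500.3 once 2% of the values are trimmed from either end, so they had been scaled before they were deposited. Software and labelling steps: not given in the sources used here. Symbols came from the array's annotation table, which named 10833 of 12422 probe sets with 1 gene, 396 with several and 1193 with none, and current symbols chose the same 135 members.

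The columns were quantile normalized, floored at the 20th percentile, and taken to log2. Probe sets with a mean at or above the 40th percentile were fitted in limma 3.58.1 (R 4.3.3) with an intensity trend in the variance prior, and the Benjamini-Hochberg adjustment of its p-values (for tests of either direction) covered all 7453. The fits were checked on simulated data. With 4 arrays the number of arrays limits the precision. Figures used matplotlib 3.10.9 in Python 3.11.15.

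Members and lists were chosen with earlier results of these data known. Named were the widest and narrowest ranges in each class, the 3 members furthest above and below in each sample, those with the smallest p, genes with 3 or more probe sets, and 40 preset genes, of which 12 had no probe set under their symbol. Further members were named after their values were seen. Alternatives changed the normalization, floor, filter, probe sets, variance prior, time scale and samples.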

Additional observations from a re-analysis of the deposited data

Results flagged for a closer look

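In 3 of the 96 tested probe sets 1 sample lay so far from the others that its gap to the nearest, divided by the whole range, passed Dixon's 95% critical value for 4 samples. The ratios were taken on the normalized log2 values, and the signals given here are those deposited. Ppp2r2a, a targeting subunit of PP2A, had 69.1 at 4 hours, against 163, 169.6 and 154 at 1, 2 and 6 hours, a gap ratio of 0.92. Ppp1r3c, which brings PP1 to glycogen, had 92.0 at 4 hours, against 200.1, 199.6 and 225 at 1, 2 and 6 hours, a ratio of 0.84. Pde6d, which carries prenylated proteins, had 673 at 2 hours, against 877, 875 and 894 at 1, 4 and 6 hours, a ratio of 0.958. Chance marks about 1 in 20 such groups if the values are normally distributed, so 3 of 96 was not read as a pattern. The share over all tested probe sets was not counted. The cause was not tested.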

How the results depend on the processing

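No paired analysis was possible because the 4 samples form 1 group with 1 sample at each time. The counts below have no share over all tested probe sets beside them, because it was not counted under the alternatives. The trend called 0 members under each of its 15 alternatives, and all 6 slopes named kept their sign in every fit that held their probe set. The 3 calls of the 1-hour sample kept their direction throughout, and they also passed on the values as deposited, with equal medians and with no floor. Members called higher, 1 in the report, were 0 with 1 probe set per gene, without suffixed probe sets, with a 40th-percentile floor, and with a prior without an intensity trend. With no filter they were 3, the dim probe sets of Mapk8, Adcy7 and Map3k4, whose other samples lay at or near the floor. Members called lower, 2 in the report, were 1 with 1 probe set per gene and 0 with the higher floor, with that prior and with no filter. Leaving out 1 of the other samples gave 0 to 1 higher and 1 to 5 lower. In the other pathway genes the 1 call at 1 hour became 2 on deposited values or with equal medians and 0 with the higher floor or no filter.

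Counts of 2-fold differences followed the filter. With no filter the pairs 1 and 2, 1 and 4, 1 and 6, 2 and 4, 2 and 6, and 4 and 6 hours had 11, 18, 16, 11, 4 and 13 members apart. With the filter at the 60th percentile these were 1, 4, 3, 1, 0 and 1, with the floor at the 40th percentile the pairs 2 and 4 and 4 and 6 hours had 1 and 2, and with 1 probe set per gene 1 and 6 hours had 4. Against the mean of the others, no filter gave 13, 2, 9 and 4 in the order of hours. The filter at the 60th percentile gave 3 at 1 hour, 0 at 4 hours and 0 at 6 hours, the floor at the 40th percentile 0 at 4 hours, 1 probe set per gene 3 at 1 hour, and no floor 0 at 6 hours. Leaving out 1 sample gave 3 to 6, 0 to 1, 4 to 6 and 0 to 4. A range of 1 log2 unit or more was found in 31 members with no filter and in 6 with the filter at the 60th percentile. Leaving out 1 sample gave 8 to 14, with 9 without the 1-hour and 8 without the 4-hour sample. The stricter filter also tested fewer members, 67 in place of 96, and no filter tested 135.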
